A study of Saccharomyces cerevisiae with 16 samples.

Results

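The genes described here are 10 nuclear genes of the tricarboxylic acid (TCA) cycle and of the retrograde response in Saccharomyces cerevisiae, taken by name from the count tables of RNA-seq and ribosome profiling, which hold 7126 features for RNA. They are CIT1 (YNR001C, chrXIV:629622-631061), CIT2 (YCR005C, chrIII:120946-122328), CIT3 (YPR001W, chrXVI:556377-557837), ACO1 (YLR304C, chrXII:735212-737548), IDH1 (YNL037C, chrXIV:557920-559002), IDH2 (YOR136W, chrXV:580250-581359), KGD1 (YIL125W, chrIX:122689-125733), FUM1 (YPL262W, chrXVI:47336-48802), MDH1 (YKL085W, chrXI:279123-280127) and DLD3 (YEL071W, chrV:16355-17845), in coordinates of the R64 build. Each coding sequence lies in 1 exon, and all 10 had an entry in each of the 16 libraries. The strain was haploid BY4742 with the genotype eIF4E-AID, in which the cap-binding initiation factor eIF4E carries an auxin-inducible degron, so that indole-3-acetic acid (IAA) leads to its degradation. Cells growing in the rich medium YPD were given IAA at 500 µM, or DMSO as the vehicle, and collected after 1 h or 8 h. RNA and ribosome-protected fragments (footprints) were sequenced from 2 replicates of each, so that IAA and DMSO groups share strain, tag and medium. The labels number the replicates as biological, without saying how the cultures were separated, and each p-value rests on the spread among these libraries alone.

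The TCA cycle oxidises acetyl-CoA in the mitochondrial matrix and supplies oxoglutarate and oxaloacetate for amino acid synthesis. In yeast growing on glucose it is only partly used for respiration, and several of its genes are repressed by glucose and activated by the Hap2/3/4/5 complex through CCAAT sites. When mitochondrial function fails, the retrograde pathway sends the transcription factors Rtg1 and Rtg3 to the nucleus, where they bind the R box (core GTCAC) upstream of targets such as CIT2 and DLD3. The genes for the first steps of the cycle (CIT1, ACO1, IDH1, IDH2), a route to glutamate when respiration is low, are also counted as targets.

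CIT1, CIT2 and CIT3 encode citrate synthases, of which Cit1 is mitochondrial and Cit2 peroxisomal. ACO1 encodes aconitase, IDH1 and IDH2 the subunits of NAD-dependent isocitrate dehydrogenase, KGD1 a subunit of the oxoglutarate dehydrogenase complex, FUM1 fumarase and MDH1 mitochondrial malate dehydrogenase. DLD3 encodes a cytosolic hydroxyglutarate transhydrogenase and is, like CIT2, a classic retrograde target. The coding sequences of CIT1 and CIT2 were identical at 74% of aligned bases, those of CIT1 and CIT3 at 60.2% and those of CIT2 and CIT3 at 59.5%. No stretch of 28 bases in any of the 10 coding sequences occurred elsewhere in the genome, so that footprint-sized reads of the paralogs can be told apart.

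Sequence upstream of these genes was read from the R64 genome to show where the letters of the retrograde and Hap sites occur. In the 500 bases before the start codon, which include the 5′ untranslated region, GTCAC was found on either strand upstream of 8 of 10 genes, against 42.5% of 6000 windows of nuclear protein-coding genes. IDH2 and MDH1 held none. It occurred at least 2 times upstream of 4 genes (CIT2, IDH1, FUM1 and DLD3), against 11.2% of windows. CIT2 held 3. CCAAT was found upstream of 9 genes, all but DLD3, against 62.4% of windows, and the Gcn4 core TGACTC upstream of 2 (KGD1 and FUM1), against 12.7%. The GTCAC windows of CIT2 and DLD3 are printed because these are the named retrograde targets, and those of IDH1 and ACO1 as examples from early steps of the cycle. CIT1, also an early step, held 1 match, 368 bases upstream, which is not printed. Windows run 5′ to 3′ on the strand of the gene, with the core or its reverse complement in capitals.
CIT2, 345 bases upstream, chrIII:122659-122683, minus strand: gggcgaagagGTCACgacctatttt
CIT2, 312 bases upstream, chrIII:122626-122650, minus strand: gaaaaaaagtGTGACcttttccgta
CIT2, 196 bases upstream, chrIII:122510-122534, minus strand: tatgaaattgGTGACgttaatctaa
DLD3, 160 bases upstream, chrV:16185-16209, plus strand: gccacagttgGTGACcgccaaatct
DLD3, 143 bases upstream, chrV:16202-16226, plus strand: ccaaatctaaGTCACgcgcggaaac
IDH1, 477 bases upstream, chrXIV:559465-559489, minus strand: tagaaagcacGTGACttacgttact
IDH1, 355 bases upstream, chrXIV:559343-559367, minus strand: ggcgtcatagGTCACtcatcaacca
ACO1, 450 bases upstream, chrXII:737984-738008, minus strand: aatgacgccgGTCACacgcgggtgc

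MDH1 held 2 CCAAT matches and no GTCAC, and its windows are shown with CCAAT or its reverse complement in capitals.
MDH1, 247 bases upstream, chrXI:278866-278890, plus strand: ctcagcgttcATTGGctcaatcacg
MDH1, 129 bases upstream, chrXI:278984-279008, plus strand: gttagcacgcATTGGgtgtttgtac
At CIT2 the third GTCAC match shares a base with a CCAAT match, and at FUM1 a GTCAC match overlaps the TGACTC match. A match is a description of letters and not a bound site.

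**Figure D1:**
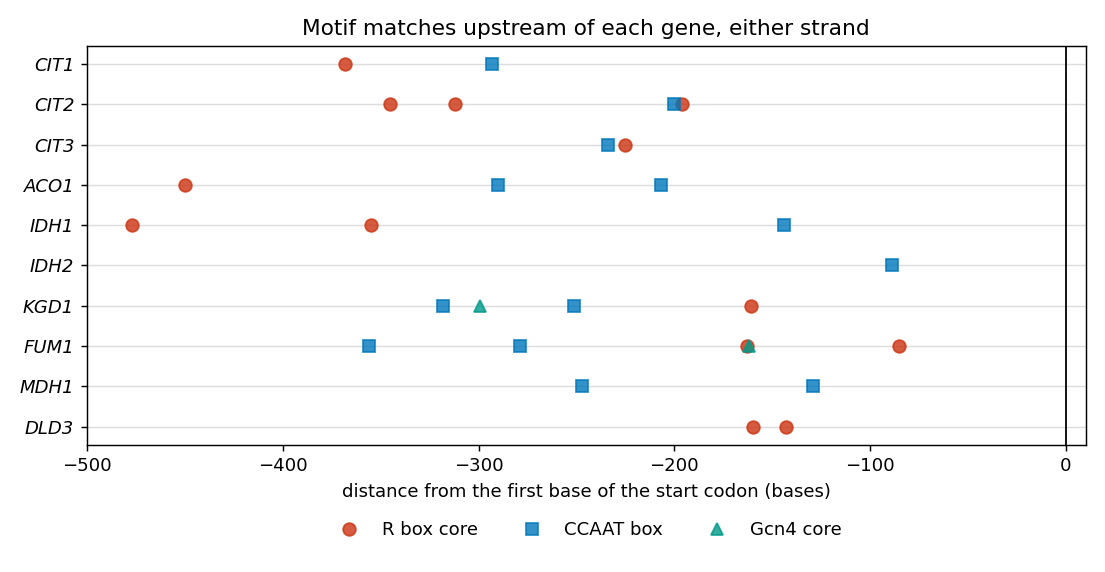
Positions of GTCAC (R box core), CCAAT and TGACTC (Gcn4 core) in the 500 bases upstream of the start codon of each gene, on either strand, with distance in bases on the x axis and 1 gene per line. CIT2 carries 3 GTCAC matches, and IDH2 and MDH1 carry none.

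RNA libraries held 10182227 to 50294053 counts assigned to genes and footprint libraries 1766499 to 9985060. The summed RNA level of the alpha-cell genes SAG1, STE3 and MFALPHA1 (genes of the mating type of BY4742) was 2956 to 3167 CPM (the count scaled to the effective size of the library) in DMSO and 3281 to 3536 CPM in IAA at 1 h, and 1406 to 1519.8 and 1439 to 1568 CPM at 8 h. By edgeR 2 of 3 rose and 0 fell at 1 h and 0 of 3 rose and 0 fell at 8 h. That of the a-cell genes STE2, BAR1, MFA1 and MFA2 was 8.65 to 9.64 CPM in DMSO and 18.0 to 20.6 CPM in IAA at 1 h, and 7.64 to 9.60 and 17.9 to 21.6 CPM at 8 h. In RNA 1 of 4 rose and 0 fell at 1 h (STE2) and 2 of 4 rose and 0 fell at 8 h (STE2 and MFA1). In footprints the a-cell sum was 1.48 to 1.61 CPM in DMSO and 0.514 to 1.65 CPM in IAA at 1 h, and 0.631 to 1.84 and 6.06 to 6.16 CPM at 8 h. The part of these differences in the results was not tested. HIS3, LEU2, LYS2 and URA3, markers deleted in BY4742, had 0 footprints in every library and together 2 to 59 RNA counts. Libraries of the 2 times were prepared differently, with poly(A) selection of RNA at 1 h and rRNA depletion at 8 h, so that time and preparation cannot be told apart.

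Genes were called at a Benjamini-Hochberg adjusted p under 0.05 from edgeR's quasi-likelihood test over all genes. The 10 genes were chosen with their differences between IAA and DMSO already known, so those values and calls are a description with no p-value attached, and nothing is read from setting their counts beside those of all genes. They did not move as 1 group. With 2 libraries per agent, groups can lie apart by sampling alone, so groups said not to overlap describe levels only. After 1 h, 1 of 10 genes was called higher in RNA (CIT2) and 3 lower (KGD1, FUM1 and MDH1), beside 22.3% and 21.4% of 6247 genes tested. In footprints 1 of the 9 genes that passed the filter on low counts was higher (CIT2) and 2 lower (KGD1 and MDH1), beside 11.3% and 14.8%. After 8 h, 1 gene was higher in RNA (CIT2) and 1 lower (MDH1), beside 10.7% and 10.3%. In footprints at 8 h 6 of 9 were higher (CIT1, CIT2, ACO1, IDH1, IDH2 and KGD1) and 1 lower (MDH1), beside 11.8% and 13.6%. The median log2 difference of the genes tested was 0.03 in RNA and 0.08 in footprints at 1 h, and 0.02 and 0.56 at 8 h, against 0.01 over all genes in each of these comparisons. Levels in CPM are relative to the library, with any scaling used here, so that amounts per cell are not known from them. The paper reports that bulk protein synthesis fell early in the depletion and later recovered. A higher footprint level in IAA is therefore a higher share of the footprints, and whether more ribosomes were on a gene's RNA was not tested. Directions depend on the scaling. With total counts in place of TMM, 6 genes were called higher and 1 lower in footprints at 1 h, and the share of all calls that were higher went from 51% to 81.5% in RNA and 43.3% to 84.4% in footprints at 1 h, and from 50.9% to 63.9% and 46.4% to 86.6% at 8 h.

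**Figure D2:**
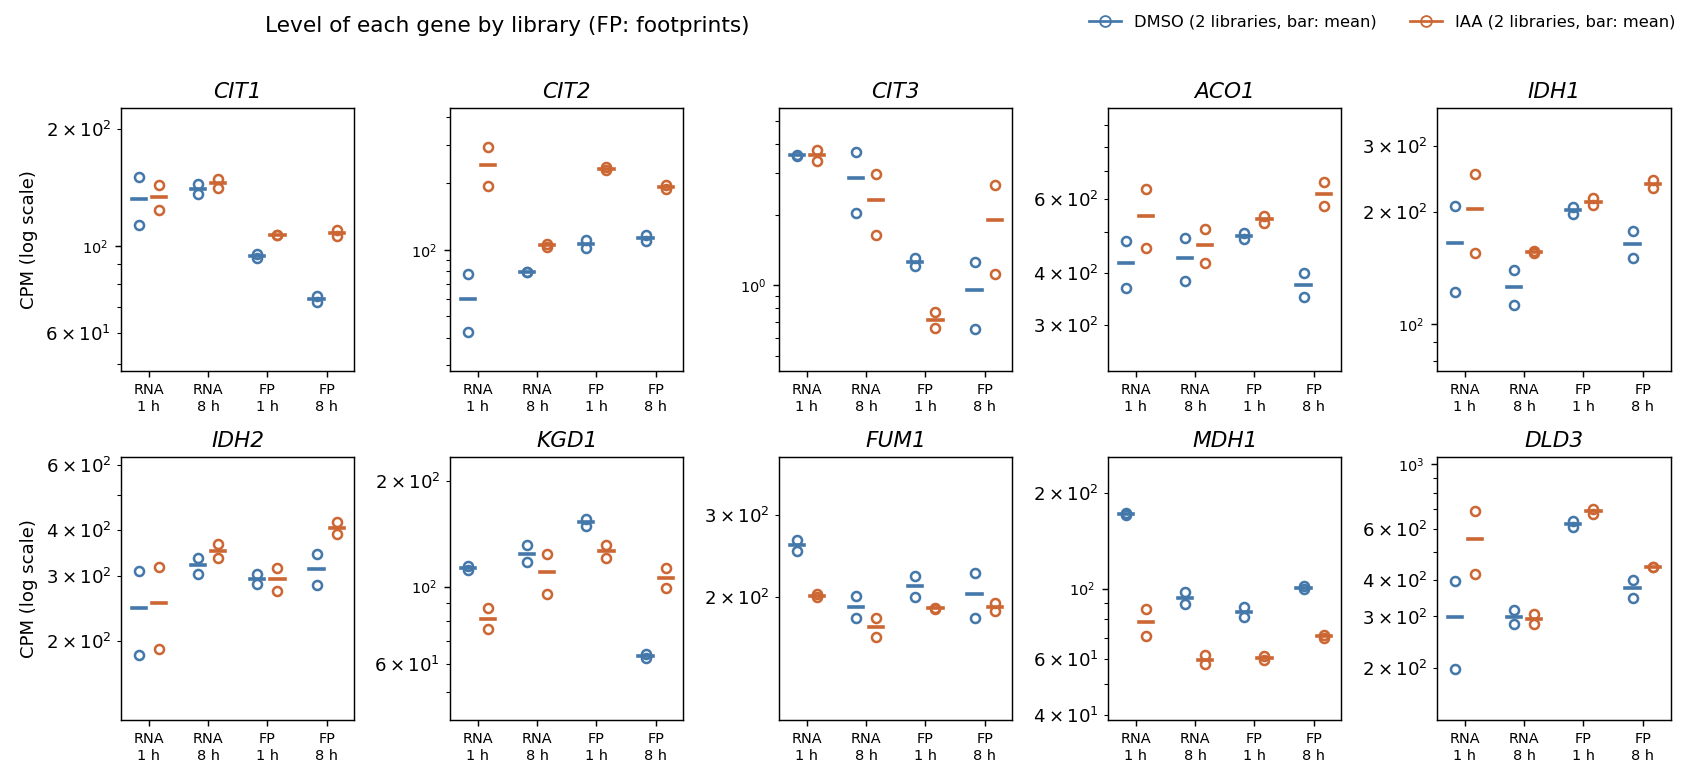
Level of each of the 10 genes in every library, in CPM on a log axis whose range differs between panels, for RNA and footprints (FP) at 1 h and 8 h. Points are libraries (2 per group) and bars are group means. In MDH1 both IAA libraries lie below both DMSO libraries in all 4 settings, and in CIT2 both lie above.

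CIT2, the peroxisomal citrate synthase gene, was higher in IAA, relative to the library, in all 4 settings. In RNA at 1 h it stood at 42.6 and 77.4 CPM in DMSO and 195 and 292 CPM in IAA. The replicates of each agent were far apart, but the groups did not overlap. The log2 difference was 2.02 ± 0.42 (SE, 2 libraries per group), a 4.05-fold level. This call was lost without a filter on low counts (log2 difference 2.01), without IAA replicate 1 (2.26) and without IAA replicate 2 (1.70).

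Footprints of CIT2 at 1 h were 110.4 and 102 CPM in DMSO and 237 and 229 CPM in IAA, a tight pair in each agent and a log2 difference of 1.13 ± 0.07. At 8 h its RNA was 79.6 and 79.6 CPM in DMSO and 107 and 103 CPM in IAA. The increase there was smaller, 0.40 ± 0.10 in log2, and the call was lost with DESeq2 and with all RNA libraries in 1 fit, and also when either IAA library was left out. Footprints at 8 h were 117 and 109.6 CPM in DMSO and 189 and 196 CPM in IAA, with a log2 difference of 0.77 ± 0.13. Both footprint differences of CIT2 kept their call in every alternative run.

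DLD3 is the other classic retrograde target. Its RNA at 1 h was 199 and 397 CPM in DMSO and 418 and 691 CPM in IAA, with replicate 2 higher than replicate 1 in both agents. Both IAA libraries lay above both DMSO libraries. The log2 difference of 0.90 ± 0.49 was not called, but was with the replicate number as a block (0.94). In footprints at 1 h the levels were 611 and 638 CPM in DMSO and 673 and 705 CPM in IAA, a log2 difference of 0.14 ± 0.06 that was not called but was with total-count scaling (0.32) and without DMSO replicate 2 (0.18). At 8 h the RNA overlapped, at 283 and 316 CPM in DMSO and 307 and 283 CPM in IAA. The footprints at 8 h were 402 and 347 CPM in DMSO and 442 and 444 CPM in IAA, and the log2 difference of 0.25 ± 0.12 was not called, except with total-count scaling (0.52) and with all footprint libraries in 1 fit (0.26). Leaving out a DMSO library at 1 h gave a called RNA difference of 0.48 (replicate 1) or 1.48 (replicate 2).

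In RNA at 1 h the gap between replicates varied among the genes. Replicate 2 exceeded replicate 1 in DMSO by 1.00 in log2 for DLD3, 0.86 for CIT2, 0.76 for IDH1 and 0.75 for IDH2, which lay at percentiles 97.7 to 98.9 of the genes tested. In IAA the values were 0.72, 0.58, 0.70 and 0.74, at percentiles 96.3 to 97.9. CIT1 was at 0.41 in DMSO and 0.21 in IAA, and ACO1 at 0.37 and 0.47. CIT3, at -0.01 in DMSO and 0.15 in IAA, and FUM1, at 0.08 and 0.02, had smaller gaps. KGD1 and MDH1 were at -0.04 and 0.02 in DMSO and -0.20 and -0.28 in IAA.

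CIT1, the mitochondrial citrate synthase gene, did not follow CIT2 in RNA. Its RNA was 113 and 150.2 CPM in DMSO and 124 and 144 CPM in IAA at 1 h, and 144 and 136 CPM in DMSO and 149 and 141 CPM in IAA at 8 h. The groups overlapped at both times, with log2 differences of 0.02 ± 0.16 and 0.05 ± 0.11. Its footprints at 1 h were 93.0 and 95.3 CPM in DMSO and 107 and 107 CPM in IAA. The log2 difference of 0.18 ± 0.08 was called only with total-count scaling (0.37). At 8 h the footprints were 71.9 and 74.4 CPM in DMSO and 110.2 and 106 CPM in IAA. The difference of 0.56 ± 0.15 was called, except without IAA replicate 1, where it was 0.53. CIT3, the third citrate synthase gene, was barely detected. It had 9 and 8 in DMSO and 2 and 3 in IAA as footprint counts at 1 h and 2 and 6 in DMSO and 6 and 19 in IAA at 8 h, and did not pass the filter on low counts in footprints. Its RNA counts were 106 and 146 in DMSO and 134 and 211 in IAA at 1 h and 36 and 31 in DMSO and 20 and 35 in IAA at 8 h, with overlapping groups.

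ACO1, which acts on the citrate made by these enzymes, had footprints at 8 h of 349.6 and 399 CPM in DMSO and 659 and 577 CPM in IAA, a log2 difference of 0.71 ± 0.12 that was called in every alternative run. At 1 h they were 497 and 481 CPM in DMSO and 547 and 526 CPM in IAA. The log2 difference of 0.13 ± 0.06 was called only with total-count scaling (0.31). ACO1 RNA overlapped between the agents, at 368 and 476 CPM in DMSO and 457 and 635 CPM in IAA at 1 h and 383 and 484 CPM in DMSO and 508 and 422 CPM in IAA at 8 h. The log2 differences in RNA were 0.37 ± 0.21 and 0.10 ± 0.17. That at 1 h was called with the replicate number as a block (0.37), without DMSO replicate 2 (0.57) and without IAA replicate 1 (0.58).

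Both subunits of isocitrate dehydrogenase showed the same order of groups at 8 h. Footprints of IDH1 were 178 and 150.2 CPM in DMSO and 231 and 244 CPM in IAA, and those of IDH2 were 285 and 344 CPM in DMSO and 420.4 and 389.8 CPM in IAA. Neither pair of groups overlapped, and the log2 differences were 0.56 ± 0.13 and 0.35 ± 0.12. The IDH1 call was lost without DMSO replicate 2 (0.40) and the IDH2 call without DMSO replicate 1 (0.23) or either IAA library (0.30 and 0.41). At 1 h footprints of IDH1 were 197 and 207 CPM in DMSO and 218 and 209 CPM in IAA, and those of IDH2 were 304 and 286 CPM in DMSO and 273 and 315 CPM in IAA. Only the IDH2 groups overlapped, and the differences of 0.08 ± 0.06 and 0.00057 ± 0.06 were called only with total-count scaling (0.26 and 0.18). RNA of IDH1 at 1 h was 122 and 208 CPM in DMSO and 155 and 252 CPM in IAA, and that of IDH2 was 183 and 309 CPM in DMSO and 190.0 and 317 CPM in IAA. Replicate 2 was above replicate 1 in each of these 4 pairs, and the agents overlapped. The log2 differences of 0.30 ± 0.41 and 0.04 ± 0.42 were not called, although that of IDH1 was with the replicate number as a block (0.31). At 8 h RNA of IDH1 was 113 and 139.8 CPM in DMSO and 158 and 155 CPM in IAA, and that of IDH2 was 305 and 337 CPM in DMSO and 368 and 335 CPM in IAA. The IDH1 groups did not overlap and the IDH2 groups did, and the differences of 0.31 ± 0.12 and 0.13 ± 0.14 were not called. Without DMSO replicate 2 that of IDH1 was called, at 0.47.

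KGD1, of the oxoglutarate dehydrogenase complex, was lower in IAA at 1 h and higher in footprints at 8 h. Its RNA at 1 h was 114 and 111 CPM in DMSO and 86.6 and 75.5 CPM in IAA, a log2 difference of -0.48 ± 0.08. Footprints at 1 h were 149 and 156 CPM in DMSO and 121 and 132 CPM in IAA, with a difference of -0.26 ± 0.07. The footprint call was lost with DESeq2, with total-count scaling (-0.08), with all footprint libraries in 1 fit and without IAA replicate 1 (-0.21). At 8 h RNA overlapped, at 117 and 131 CPM in DMSO and 124 and 95.5 CPM in IAA. Footprints at 8 h were 62.5 and 64.1 CPM in DMSO and 113 and 99.2 CPM in IAA, a log2 difference of 0.74 ± 0.15 called in every alternative run.

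FUM1, for fumarase, and MDH1, for malate dehydrogenase, lie later in the cycle. FUM1 RNA at 1 h was 251 and 265 CPM in DMSO and 200.2 and 203 CPM in IAA, without overlap, and the log2 difference of -0.36 ± 0.07 became -0.14 and lost its call with total-count scaling. Its footprints were 200.2 and 222 CPM in DMSO and 190.2 and 189 CPM in IAA at 1 h, again without overlap, and 225 and 181 CPM in DMSO and 195 and 187 CPM in IAA at 8 h, where the groups overlapped. At 8 h its RNA also overlapped, at 180.3 and 201 CPM in DMSO and 181 and 164 CPM in IAA. These differences were not called, at -0.16 ± 0.06, -0.07 ± 0.13 and -0.15 ± 0.12, although that in footprints at 1 h was called without DMSO replicate 1 (-0.23).

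MDH1 was lower in IAA throughout. Its RNA was 170.3 and 172 CPM in DMSO and 86.0 and 70.8 CPM in IAA at 1 h, a difference of -1.13 ± 0.10. At 8 h the RNA was 89.5 and 97.6 CPM in DMSO and 61.7 and 58.0 CPM in IAA, a difference of -0.65 ± 0.11. Footprints of MDH1 were 87.6 and 81.2 CPM in DMSO and 61.3 and 59.7 CPM in IAA at 1 h and 102 and 99.7 CPM in DMSO and 71.5 and 70.2 CPM in IAA at 8 h. The groups did not overlap, and the differences were -0.49 ± 0.09 and -0.50 ± 0.15. The call at 8 h was lost with total-count scaling (-0.24), without IAA replicate 1 (-0.52) and without IAA replicate 2 (-0.49). In bulk samples fewer cells carrying an RNA and less RNA per cell cannot be told apart.

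**Figure D3:**
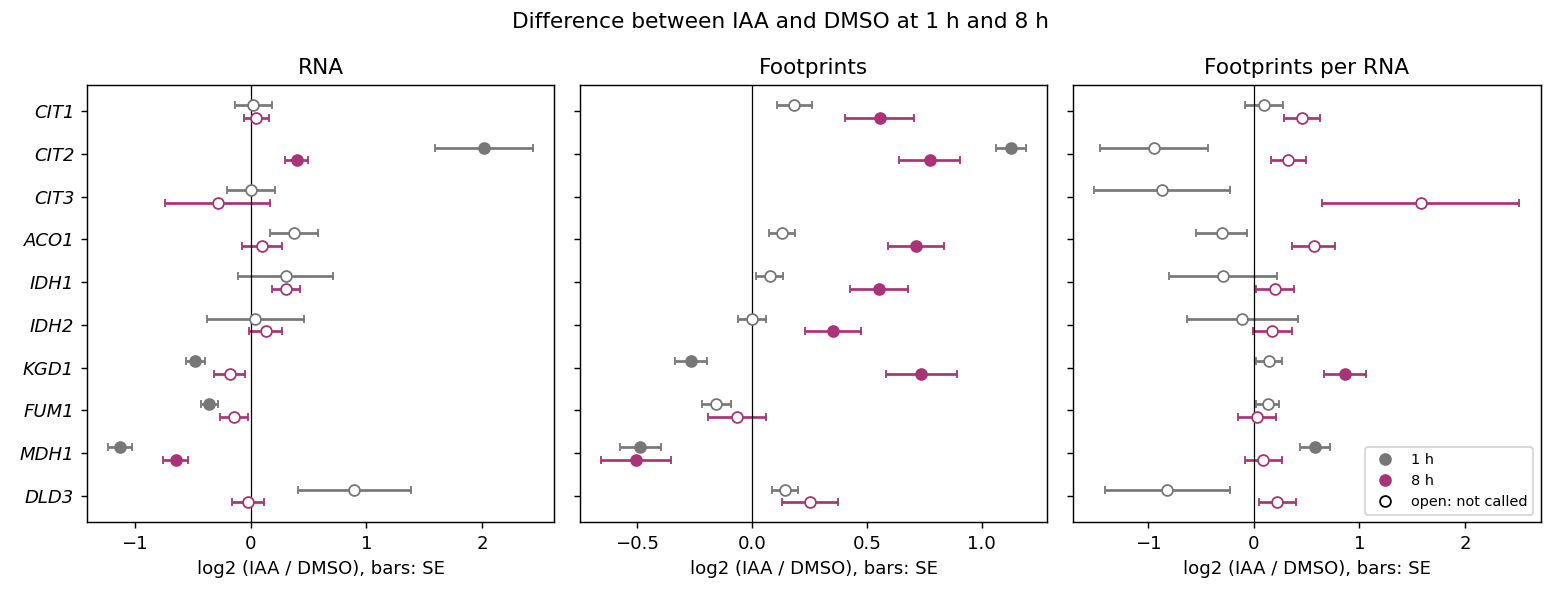
Log2 difference between IAA and DMSO for each gene at 1 h (grey) and 8 h (purple) in RNA, footprints and footprints per RNA, with bars of 1 SE and filled points for calls. In footprints, CIT1, ACO1, IDH1, IDH2 and KGD1 lie further right at 8 h than at 1 h, and CIT2 further left. CIT3 is not drawn in footprints, where it was not tested.

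Footprints per RNA, the translation efficiency, was fitted as the interaction of assay and agent over the 8 libraries of a time. At 1 h MDH1 was called higher, at 0.58 ± 0.14, 1 gene beside 10.3% of 6055, and 0 were lower beside 10.9%. That call was lost without footprint DMSO replicate 2 (0.54), footprint IAA replicate 1 (0.57) or footprint IAA replicate 2 (0.61). CIT2 and DLD3, whose RNA differed more than their footprints, had values of -0.95 ± 0.51 and -0.82 ± 0.59 with wide errors and were not called. Their RNA was higher in replicate 2 in DMSO and in IAA, by 0.86 and 0.58 in log2 for CIT2 and 1.00 and 0.72 for DLD3. The fit does not use the replicate number, and the part of these gaps in the errors was not tested. The lack of a call is therefore not read as a lack of difference. At 8 h KGD1 was called higher, at 0.86 ± 0.20, 1 gene beside 3.73% of 5442, and 0 were lower beside 2.22%. The call was lost without footprint IAA replicate 1 (0.78) or RNA IAA replicate 2 (0.74). ACO1, at 0.57 ± 0.20, was called without RNA DMSO replicate 1 (0.76) or RNA IAA replicate 1 (0.74). Values at 8 h ran from 0.03 ± 0.18 in FUM1, which changed sign with some libraries left out, to 1.58 ± 0.93 in CIT3, on few footprints. The median of the 10 genes was 0.28, and -0.20 at 1 h, against -0.02 and -0.01 over all genes. The paper reports that transcript length had the strongest correlation with changes in translation efficiency after depletion. Coding lengths here ran from 1005 bases in MDH1 to 3045 in KGD1. The part of length in these values, or in those of the gene lists below, was not tested.

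The response to IAA was compared between the times as an interaction of time and agent. In footprints 3 of 9 genes had a higher response at 8 h (KGD1, ACO1 and IDH1, by 1.02 ± 0.15, 0.59 ± 0.13 and 0.50 ± 0.14 in log2), beside 8.05% of 5034, and 0 a lower one, beside 5.03%. The ACO1 call was lost without 1 h IAA replicate 2 (0.57), and the IDH1 call without 1 h DMSO replicate 2 (0.46), either 1 h IAA library (0.53 and 0.47) or 8 h DMSO replicate 2 (0.34). IDH2, at 0.36 ± 0.14, was called without 8 h DMSO replicate 2 (0.51). In RNA 0 of 10 genes had a higher and 0 a lower response at 8 h by edgeR, beside 1.07% and 0.589% of 6451. CIT2 had the most negative value there, -1.63 ± 0.46, which DESeq2 called, as edgeR did without 1 h DMSO replicate 1 (-1.28) or replicate 2 (-2.13).

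The ratio of footprints to RNA in DMSO does not use the IAA libraries. It is given relative to the median gene, because its zero depends on the scaling. At 1 h 9 of 10 genes lay above the median gene. DLD3 was highest, at 2.42 ± 0.48 in log2 (percentile 95.8 of 5907 genes), followed by CIT2 at 2.17 ± 0.42 and KGD1 at 1.79 ± 0.07, and MDH1 was at 0.33 ± 0.08. CIT3 was at -0.16 ± 0.35. At 8 h CIT2 (1.15 ± 0.15), IDH1 (1.01 ± 0.15) and DLD3 (0.97 ± 0.14) were highest, within their errors of each other, and CIT1, KGD1 and CIT3 lay below the median gene, at -0.28 ± 0.15, -0.32 ± 0.16 and -1.21 ± 0.69. KGD1 stood at percentile 94.3 at 1 h and 36 at 8 h in the controls alone, which are the same DMSO libraries that enter its response in footprints per RNA.

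**Figure D4:**
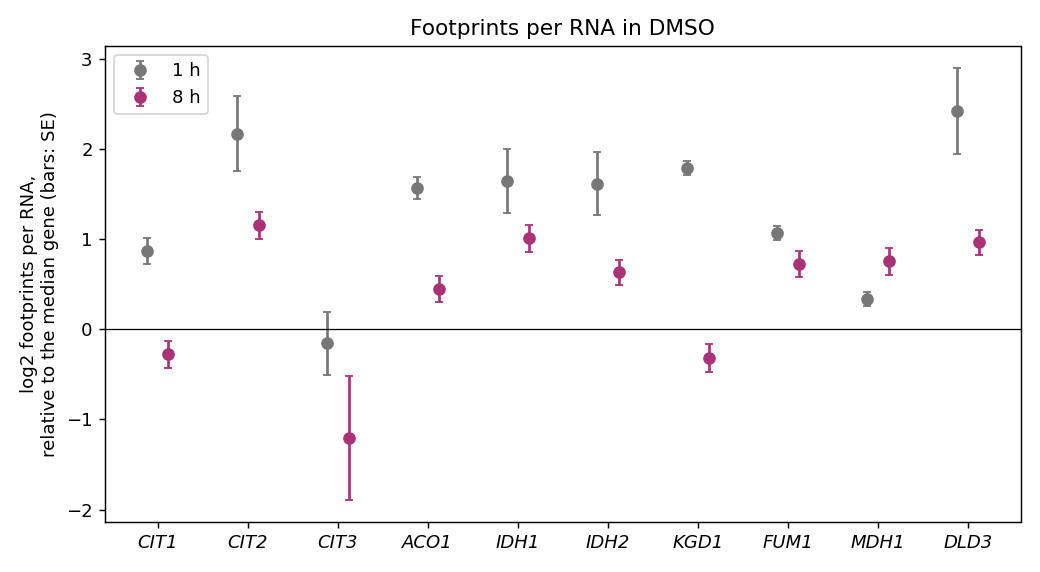
Footprints per RNA in DMSO for each gene, in log2 relative to the median gene, at 1 h (grey) and 8 h (purple), with bars of 1 SE. CIT1 and KGD1 lie above the median gene at 1 h and below it at 8 h.

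The remaining enzymes of the cycle were read from the same fits as a list of 11 genes. This list and those below were also chosen with earlier results of these data known. Their calls and adjusted p-values are therefore a description and no independent support. In RNA at 1 h 1 of 11 rose and 8 fell, with a median of -0.67. LSC2, a subunit of succinyl-CoA ligase (-0.99 ± 0.07, adjusted p = 3.19e-04), LPD1, the dihydrolipoamide dehydrogenase shared with KGD1's complex (-0.77 ± 0.08, adjusted p = 8.35e-04), and KGD4, another subunit of that complex (-0.79 ± 0.10, adjusted p = 0.00124), fell in edgeR's test. In footprints at 1 h 2 of 11 rose and 4 fell. IDP1, the NADP-dependent isocitrate dehydrogenase gene, fell (-0.52 ± 0.06, adjusted p = 3.15e-09 by edgeR). At 8 h 1 of 11 rose and 4 fell in RNA and 1 of 11 rose and 2 fell in footprints. The median in footprints at 8 h was -0.10. In footprints per RNA 4 of 11 rose and 1 fell at 1 h and 1 of 11 rose and 0 fell at 8 h.

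Pyruvate enters the cycle as acetyl-CoA or as oxaloacetate. Of the pyruvate entry genes 2 of 9 rose and 0 fell in footprints at 8 h, and these were the pyruvate carboxylases, which make oxaloacetate, PYC1 (1.26 ± 0.13, adjusted p = 2.09e-19) and PYC2 (0.88 ± 0.13, adjusted p = 7.73e-10) by edgeR. PYC2 footprints fell at 1 h (-0.29 ± 0.06, adjusted p = 1.55e-04 by edgeR), a call lost with total-count scaling (-0.11). In this list 1 of 9 rose and 2 fell in RNA and 0 of 8 rose and 4 fell in footprints at 1 h, and 1 of 9 rose and 1 fell in RNA at 8 h. MPC2, a subunit of the mitochondrial pyruvate carrier, rose in RNA at 1 h (0.76 ± 0.10, adjusted p = 0.0014 by edgeR). Among glyoxylate cycle genes and extramitochondrial isozymes, 1 of 7 rose and 2 fell in RNA and 0 of 3 rose and 1 fell in footprints at 1 h, and 0 of 7 rose and 1 fell and 1 of 4 rose and 0 fell at 8 h. MDH2, the cytosolic malate dehydrogenase gene, fell in RNA at 1 h (-1.17 ± 0.12, adjusted p = 8.67e-04 by edgeR) as MDH1 did. Unlike those of MDH1, its footprints did not fall at 1 h, at 99.8 and 88.7 CPM in DMSO and 105 and 108 CPM in IAA. They rose at 8 h (0.73 ± 0.14, adjusted p = 5.33e-06 by edgeR).

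Oxoglutarate leaves the cycle as glutamate. Of the genes of glutamate and glutamine metabolism 2 of 5 rose and 2 fell in RNA and 1 of 5 rose and 2 fell in footprints at 1 h, and 1 of 5 rose and 1 fell and 3 of 5 rose and 0 fell at 8 h. In edgeR's test of footprints at 8 h these were GDH2, which degrades glutamate (2.22 ± 0.23, adjusted p = 4.24e-18), GLT1, glutamate synthase (1.06 ± 0.13, adjusted p = 7.27e-13), and GDH1, the main glutamate dehydrogenase for synthesis (0.81 ± 0.12, adjusted p = 8.17e-10), each called in every alternative run. Of the retrograde signalling genes 2 of 8 rose and 3 fell in RNA and 1 of 8 rose and 0 fell in footprints at 1 h, and 2 of 8 rose and 1 fell and 0 of 8 rose and 2 fell at 8 h. BMH1, a phosphoserine-binding protein gene, fell in RNA at 1 h (-0.83 ± 0.10, adjusted p = 0.00133 by edgeR), and LST8, a TOR complex subunit gene, rose (0.47 ± 0.07, adjusted p = 0.00202 by edgeR). Footprints at 1 h overlapped between the agents. Those of BMH1 were 946 and 925 CPM in DMSO and 972 and 910 CPM in IAA, and those of LST8 23.1 and 23.6 CPM and 23.4 and 19.8 CPM. At 8 h footprints of LST8 were 58.1 and 47.0 CPM in DMSO and 25.95 and 33.4 CPM in IAA, and those of BMH1 1310 and 1149 CPM and 941 and 962 CPM. PDH1 and ATO3 are other retrograde targets. In RNA at 8 h PDH1, of propionate metabolism, rose (1.20 ± 0.21, adjusted p = 0.00439 by edgeR), and ATO3, for an ammonium exporter, fell (-0.49 ± 0.11, adjusted p = 0.0157 by edgeR), a call lost without DMSO replicate 1 or IAA replicate 1 (-0.39 in each case). At 1 h the RNA differences were 0.29 ± 0.39 for PDH1 and -0.59 ± 0.07 for ATO3, of which ATO3 was called. In footprints PDH1 rose at 1 h (0.76 ± 0.24, adjusted p = 0.0159 by edgeR) and at 8 h (1.81 ± 0.36, adjusted p = 1.12e-05 by edgeR), and ATO3 fell at 1 h (-0.30 ± 0.07, adjusted p = 0.00142 by edgeR) and at 8 h (-0.39 ± 0.14, adjusted p = 0.0212 by edgeR). The PDH1 call at 1 h was lost in a pooled fit and without DMSO replicate 2 or IAA replicate 2 (0.66 and 0.64). The ATO3 calls were lost with DESeq2, with total-count scaling (-0.12 at 1 h and -0.12 at 8 h), in a pooled fit at 1 h, without IAA replicate 2 at 1 h (-0.22) and without IAA replicate 1 or 2 at 8 h (-0.34 and -0.44).

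HAP4, the regulated subunit of the CCAAT-binding complex, fell in RNA at 1 h (-0.95 ± 0.18, adjusted p = 0.00781 by edgeR) and rose at 8 h (0.81 ± 0.15, adjusted p = 0.00625 by edgeR). Its interaction of time and agent was called by edgeR (1.74 ± 0.25, adjusted p = 0.00555). Of the HAP genes 2 of 5 rose and 1 fell in RNA and 0 of 5 rose and 0 fell in footprints at 1 h, and 2 of 5 rose and 0 fell and 1 of 5 rose and 0 fell at 8 h. Of the mitochondrial carriers 2 of 6 rose and 3 fell in RNA and 1 of 6 rose and 2 fell in footprints at 1 h, and 2 of 6 rose and 1 fell and 1 of 6 rose and 2 fell at 8 h. ODC2, an oxodicarboxylate carrier gene, rose in RNA at both times (1.80 ± 0.16, adjusted p = 0.00126, and 1.13 ± 0.14, adjusted p = 9.04e-04 by edgeR). Its footprints did not rise alongside at 1 h, at 27.5 and 26.7 CPM in DMSO and 28.3 and 17.2 CPM in IAA. At 8 h they were 31.6 and 24.8 CPM in DMSO and 33.8 and 32.4 CPM in IAA. Of the glucose-repressed markers 0 of 6 rose and 2 fell in RNA and 0 of 3 rose and 2 fell in footprints at 1 h, and 1 of 6 rose and 1 fell and 1 of 3 rose and 1 fell at 8 h. The search for shared stretches of 28 bases covered only the 10 genes. Footprints counted for a marker may therefore include reads of a paralog, and these footprint calls are not read as changes of glucose-repressed genes. DLD1 and DLD2, relatives of DLD3 for lactate and hydroxyglutarate oxidation, had RNA differences of 0.22 ± 0.09 and -0.25 ± 0.07 at 1 h, of which DLD2 was called except with total-count scaling (-0.03), with all RNA libraries in 1 fit, and without DMSO replicate 1 or IAA replicate 2, and 0.26 ± 0.10 and -0.24 ± 0.13 at 8 h, neither called. Their footprints were at -0.18 ± 0.12 and 0.17 ± 0.09 at 1 h and 0.40 ± 0.20 and 0.27 ± 0.17 at 8 h, none called. The summed RNA level of 8 mitochondrially encoded genes was 1260.5 to 1554 CPM in DMSO and 3014 to 3921 CPM in IAA at 8 h, and 10.8 to 16.8 CPM at 1 h, where RNA was selected by poly(A). At 8 h 7 of 8 rose and 0 fell in RNA by edgeR.

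**Figure D5:**
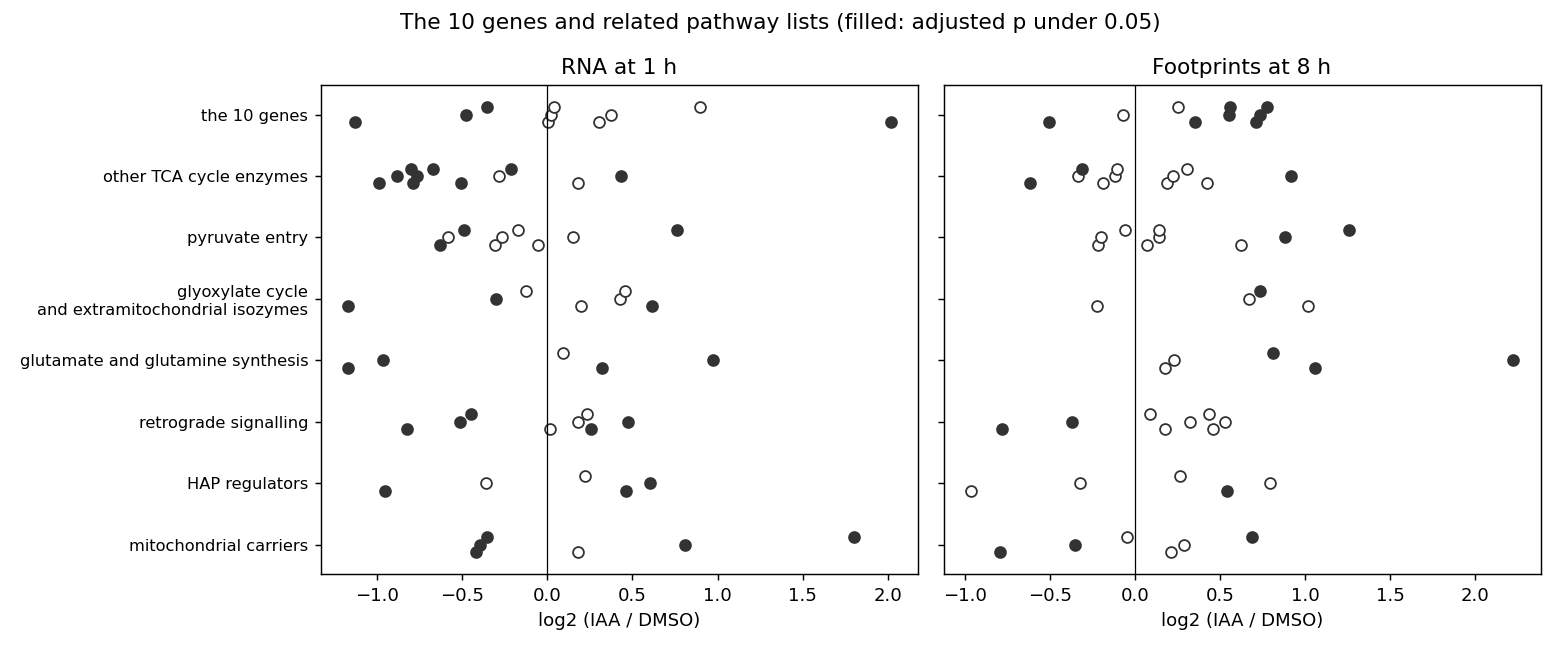
Log2 difference between IAA and DMSO in RNA at 1 h and in footprints at 8 h for the 10 genes and for 7 related pathway lists, with 1 point per gene tested and filled points at an adjusted p under 0.05. Most of the other TCA cycle enzymes lie left of 0 in RNA at 1 h, and no glutamate gene lies left of 0 in footprints at 8 h.

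Likeness of pattern was measured as the Euclidean distance over the log2 differences of RNA and footprints at 1 h and 8 h, among 3988 genes with at least 50 mean counts in each. The genes nearest to CIT1 were EGH1, RNT1, RSE1, DCP2 and NCL1, at distances of 0.0707 to 0.0973. CIT2 lay at percentile 99 of the genes tested in RNA and 99.5 in footprints at 1 h, and CIT1 at 51.2 and 71.8. These log2 differences also enter the distance, and genes are sparse at the extremes. The distances of CIT1 and CIT2 are therefore not compared. The genes nearest to CIT2 were PRM5, SPO24, PHM8, DSE1 and CIN1, at 0.783 to 1.24.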

How the data were processed

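RNA-seq and ribosome profiling gave 16 libraries, 2 in each of 8 groups named by the labels. The authors deposited 1 table per library of raw counts per gene, with cutadapt, STAR, R64 and sacCer3 listed in their processing notes. How reads were counted is not given in the sources used here. Footprint tables also carry the codons counted per gene, a deposited number equal to the coding length less 20, used only as a length. Lines of the RNA tables without a gene (21.7 to 31.2% of reads) were left out. CircLigase II was used for footprints at 1 h, whereas at 8 h the primer differed, CircLigase I was used and rRNA was removed by subtractive hybridisation. No library was a copy of its replicate (chi-square per degree of freedom 1.44 to 58.7).

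edgeR 4.0.16 in R 4.3.3 was run with filterByExpr, TMM and a robust quasi-likelihood fit, with Benjamini-Hochberg adjustment over all genes, on 4 libraries for RNA or footprints and on 8 for interactions, and was checked on simulated data. CPM used TMM-scaled library sizes. Members and gene lists were chosen with earlier results of these data known. The text names all 10 members, at most 3 genes of a longer list per comparison (smallest adjusted p), lists of 4 or fewer in full and the 5 nearest neighbours of CIT1 and CIT2. Exceptions are LSC1, LPD1 and PDA1 in the closing section, named because their sign turned. Alternatives were DESeq2 1.42.0, its size factors in edgeR, total counts, no filter on low counts, the replicate number as a block, a pooled fit and each library left out. Upstream windows came from the R64 genome, read with Biopython 1.88. Protein sequences were not analysed here, and the values of 1 list gene are not reported here.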

Additional observations from a re-analysis of the deposited data

Results flagged for a closer look

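The footprint response to IAA differed between 8 h and 1 h, by edgeR's interaction test, for 3 of the genes. The log2 difference between the responses was 1.02 for KGD1, 0.59 for ACO1 and 0.50 for IDH1. These genes were chosen with both responses known, and library preparation also changed between the times, so that time and preparation cannot be told apart.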

How the results depend on the processing

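Across the alternatives 21 of 77 log2 differences of the 10 genes changed sign at least once, and 0 of these were called in the first place. LSC1, LPD1 and PDA1 were called list genes whose sign turned with total-count scaling, which moved the median of all genes by 0.22 in RNA and 0.18 in footprints at 1 h, 0.26 in footprints at 8 h and -0.16 in the RNA time difference. The labels name no common culture or batch for a replicate number, but in RNA the replicate differences of DMSO and IAA were correlated. The correlation was 0.578 in RNA at 1 h, 0.397 in RNA at 8 h, 0.0303 in footprints at 1 h and 0.0423 in footprints at 8 h. The main fits do not use the replicate number. Using it as a block took the genes called in RNA at 1 h from 2726 to 4066. Over all genes, calls in footprints at 1 h fell from 1351 to 564 with DESeq2 and 484 in a pooled fit, those in footprints at 8 h from 1271 to 786 with DESeq2, and those in translation efficiency in a pooled fit went from 1286 to 849 at 1 h and from 324 to 740 at 8 h. The block added calls of ACO1, IDH1 and DLD3 in RNA at 1 h (0.37, 0.31 and 0.94), DLD3 and FUM1 in footprints at 1 h (0.14 and -0.16) and CIT2 and DLD3 in the RNA time difference (-1.67 and -0.97). The RNA time difference went from 107 to 238 with DESeq2 and 221 with the block. Total counts took the share of higher calls from 62.7% to 77.7% in translation efficiency at 8 h, 64.5% to 30.1% in the RNA time difference and 61.6% to 74.2% in the footprint time difference. A group reduced to a single library borrowed its spread from the other groups. Depth limits CIT3 most. 

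With DESeq2, counts of genes became 1 lower (footprints at 1 h, from 2), 0 higher (RNA at 8 h, from 1), 1 lower (RNA, time difference, from 0) and values of changed sign were CIT3 -0.00692 (RNA at 1 h), IDH2 -0.00248 (footprints at 1 h), IDH1 0.00149 (RNA, time difference), MDH1 0.0334 (footprints, time difference). With DESeq2 size factors, values of changed sign were CIT3 -0.00699 (RNA at 1 h), IDH2 -0.00049 (footprints at 1 h), MDH1 0.0364 (footprints, time difference). With total-count scaling, counts of genes became 6 higher (footprints at 1 h, from 1), 1 lower (footprints at 1 h, from 2), 0 lower (footprints at 8 h, from 1), 5 higher (footprints, time difference, from 3) and values of changed sign were LSC1 0.00343 (RNA at 1 h), FUM1 0.0263 (footprints at 1 h), LPD1 0.0186 (footprints at 1 h), PDA1 8.46e-05 (footprints at 1 h), DLD3 0.0245 (RNA at 8 h), FUM1 0.20 (footprints at 8 h), CIT1 -0.15 (RNA, time difference), IDH2 -0.0927 (RNA, time difference), MDH1 0.0593 (footprints, time difference). Without a filter on low counts, counts of genes became 0 higher (RNA at 1 h, from 1) and values of changed sign were IDH2 -0.00221 (footprints at 1 h). With the replicate number as a block, counts of genes became 4 higher (RNA at 1 h, from 1), 2 higher (footprints at 1 h, from 1), 2 lower (RNA, time difference, from 0) and values of changed sign were IDH2 -0.00195 (footprints at 1 h). With all libraries in 1 fit, counts of genes became 1 lower (footprints at 1 h, from 2), 0 higher (RNA at 8 h, from 1) and values of changed sign were CIT3 -0.00183 (RNA at 1 h), IDH2 -0.0068 (footprints at 1 h). Leaving out each library in turn, counts of genes ranged over 0 to 3 higher (RNA at 1 h), 1 to 2 higher (footprints at 1 h), 1 to 3 lower (footprints at 1 h), 0 to 1 higher (translation efficiency at 1 h), 0 to 2 higher (RNA at 8 h), 0 to 1 lower (footprints at 8 h), 0 to 2 higher (translation efficiency at 8 h), 0 to 1 lower (RNA, time difference), 1 to 3 higher (footprints, time difference). Over the same libraries left out, values that changed sign ranged over CIT1 -0.17 to 0.24 (RNA at 1 h), IDH1 -0.0911 to 0.73 (RNA at 1 h), IDH2 -0.38 to 0.47 (RNA at 1 h), CIT3 -0.0758 to 0.0633 (RNA at 1 h), IDH2 -0.11 to 0.0933 (footprints at 1 h), IDH1 -0.71 to 0.12 (translation efficiency at 1 h), IDH2 -0.52 to 0.32 (translation efficiency at 1 h), CIT1 -0.11 to 0.31 (translation efficiency at 1 h), CIT3 -0.77 to 0.18 (RNA at 8 h), ACO1 -0.0532 to 0.28 (RNA at 8 h), DLD3 -0.0902 to 0.0616 (RNA at 8 h), KGD1 -0.38 to 0.000947 (RNA at 8 h), FUM1 -0.26 to 0.0739 (footprints at 8 h), FUM1 -0.12 to 0.16 (translation efficiency at 8 h), IDH1 -0.44 to 0.37 (RNA, time difference), CIT1 -0.21 to 0.20 (RNA, time difference), IDH2 -0.35 to 0.48 (RNA, time difference), CIT3 -0.77 to 0.16 (RNA, time difference), MDH1 -0.0606 to 0.0415 (footprints, time difference), FUM1 -0.0801 to 0.25 (footprints, time difference). The cause of these changes was not tested.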
